A study of Homo sapiens with 8 samples.

Results

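Zinc transporters and metallothioneins were examined in neuroblastoma cells after knockdown of TRPM7, an ion channel fused to a protein kinase that lets magnesium, calcium and zinc into the cell. The genes were taken by symbol from the array annotation as every SLC30A and SLC39A gene with a number, every MT1 gene with a single letter, MT2A, MT3 and MTF1. This gave 36 genes with 52 probes, of 31426 gene symbols and 47322 probes on the array. They comprised 10 SLC30A exporters, 14 SLC39A importers, 11 metallothioneins and the transcription factor MTF1. Each gene was represented by its probe with the highest mean signal.

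RNA from 2 human neuroblastoma cell lines was hybridised to 8 Illumina bead arrays, 2 per group. SH-EP2 is an epithelial-like line and SH-SY5Y a neuroblastic line. By the paper's methods the lines were kept in different media, DMEM for SH-EP2 and a DMEM-based mixture with added amino acids for SH-SY5Y. In each line, control cells carried a scrambled shRNA and knockdown cells carried a TRPM7 shRNA. All 4 groups were transduced with the pLKO lentiviral vector and selected with puromycin. A single TRPM7 shRNA sequence was used on the arrays, and whether the transduced cells were clonal is not stated in the sources used here. The labels number the replicates without saying that they came from separate cultures, so the spread between arrays may be technical. The SEs and p-values rest on a spread pooled over the 4 groups. It was moderated toward a value shared by probes of similar intensity (14.9 prior and 4 residual degrees of freedom). They are thus not the replicate spread of the arrays compared alone.

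Most SLC30A proteins carry zinc out of the cytosol, to the outside or into organelles, and most SLC39A proteins carry it in. The words exporter and importer name the families here and not the measured transport of each member. Metallothioneins are small cysteine-rich proteins that bind zinc, copper and cadmium and buffer free zinc. MTF1 senses zinc and activates the metallothioneins and SLC30A1 through metal response elements, short sequences repeated in their promoters.

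The upstream sequences of 4 genes are shown because these genes carry the results below and differ in the number of these elements. They cover the 250 bases before the RefSeq start in GRCh38.p14, at chr16:56608334-56608583 on the plus strand for MT2A, chr16:56682220-56682469 on the plus strand for MT1X, chr1:211579162-211579411 on the minus strand for SLC30A1 and chr18:36129341-36129590 on the minus strand for SLC39A6. Each is written 5′ to 3′ along the gene, and capitals mark the core of the element, TGCACNC or TGCGCNC, on either strand.
MT2A: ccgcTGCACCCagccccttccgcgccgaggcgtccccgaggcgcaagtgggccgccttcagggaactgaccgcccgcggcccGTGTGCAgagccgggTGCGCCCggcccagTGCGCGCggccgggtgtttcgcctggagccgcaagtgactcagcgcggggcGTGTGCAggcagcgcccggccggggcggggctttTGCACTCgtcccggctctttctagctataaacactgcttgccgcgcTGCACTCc
MT1X: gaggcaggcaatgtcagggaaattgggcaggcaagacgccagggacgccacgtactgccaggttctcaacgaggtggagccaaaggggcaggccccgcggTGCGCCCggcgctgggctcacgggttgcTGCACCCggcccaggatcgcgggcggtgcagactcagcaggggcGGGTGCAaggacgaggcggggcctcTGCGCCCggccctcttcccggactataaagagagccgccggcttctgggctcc
SLC30A1: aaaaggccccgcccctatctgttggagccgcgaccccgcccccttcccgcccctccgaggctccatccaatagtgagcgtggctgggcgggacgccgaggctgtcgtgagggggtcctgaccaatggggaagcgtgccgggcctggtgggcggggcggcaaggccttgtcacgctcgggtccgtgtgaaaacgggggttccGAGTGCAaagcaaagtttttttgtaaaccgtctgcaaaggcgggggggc
SLC39A6: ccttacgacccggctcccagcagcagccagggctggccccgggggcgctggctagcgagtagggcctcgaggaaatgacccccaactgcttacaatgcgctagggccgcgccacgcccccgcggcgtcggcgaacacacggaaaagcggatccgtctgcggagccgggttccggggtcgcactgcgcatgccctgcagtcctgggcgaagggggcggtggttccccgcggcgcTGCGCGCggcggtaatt

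The core occurred 7 times before MT2A, 4 times before MT1X, once before SLC30A1 and once before SLC39A6. At least 1 core was present in 24.8% of all 35116 RefSeq windows of this length and at least 3 in 1.58%. Windows on chromosome 8 were left out of the counts over members, but not of the shares over all windows. Of the members, 26 had a counted sequence, with 35 windows in all because some genes have several starts. At least 1 core was found in 15 of the 35 windows and at least 3 in 5 of them. These 5 belonged to MT1B, MT1H, MT1X, MT2A and SLC30A2. No core was found before MTF1 or SLC39A10. A match describes letters only and does not show a bound site. MT1A, MT1E, MT1F and MT1G were among the 10 members without a counted sequence. So were SLC30A8, SLC39A4 and SLC39A14, which lie on chromosome 8, so that any windows of theirs were left out of the counts over members.

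Median signals of the arrays lay between 104.7 and 119.9, and 40.8% to 44.2% of probes had a detection p under 0.05, called detected here. TRPM7 itself was not detected on any array (detection p 0.0753 to 0.201), so the knockdown could not be read from its probe. The fitted log2 fold change of TRPM7 was -0.08 in SH-EP2 (adjusted p = 0.976) and -0.25 in SH-SY5Y (adjusted p = 0.911). The paper describes stable TRPM7 knockdown in both lines and refers to its supplementary figures, which were not seen here. Its methods include quantitative RT-PCR of TRPM7 in these lines. In control cells 9 of 10 noradrenergic marker genes were lower and 9 of 10 mesenchymal marker genes higher in SH-EP2 than in SH-SY5Y. The exceptions were TH, not detected on any array, and VIM, which passed as lower in SH-EP2 with a log2 difference of -0.19.

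Of the 36 genes, 21 were detected on all 8 arrays. They were 10 importers, 6 exporters, MTF1 and the metallothioneins MT1A, MT1E, MT1X and MT2A. The 10 genes detected on no array were MT1B, MT1M, MT3, the transcribed pseudogene MT1L, SLC30A2, SLC30A4, SLC30A8, SLC30A10, SLC39A2 and SLC39A12. MT3, known from brain, and SLC30A8, known from insulin granules, were among these. The other 5 genes were detected on part of the arrays, namely MT1F and MT1G on 4 each, SLC39A13 on 2, and MT1H and SLC39A5 on 1 each. The array table gives no probe sequences, and the metallothionein genes are near-identical neighbours on chromosome 16, so whether a probe also reads a related transcript was not tested and their signals are uncertain as values of single genes.

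In SH-EP2 cells, TRPM7 shRNA was accompanied by lower signals of 2 metallothioneins, MT1X and MT1A, while no zinc transporter passed the test. None of the 36 genes was higher, beside 1.82% of all genes called higher, and 2 were lower, beside 1.85% of all genes called lower (limma, adjusted p under 0.05). Among members detected on at least 2 of the arrays compared, 2 of 22 passed, beside 7.78% of all genes so detected, which is a near share. At an unadjusted p under 0.05, 1 gene was higher and 4 were lower. Across the 36 genes the median log2 fold change was -0.10, against 0.01 over all genes. In these bulk samples, fewer cells of a type and less RNA per cell cannot be told apart.

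MT1X, a zinc-inducible metallothionein of many tissues, had log2 signals of 12.30 and 12.33 in SH-EP2 control cells and 11.30 and 11.26 in TRPM7 shRNA cells. The groups did not overlap, and the knockdown arrays were the lower ones. MT1X fell by 1.03 on the log2 scale (SE 0.10, adjusted p = 2.06e-06), a 2.05-fold lower signal. MT1A, another member of the same gene cluster, read 12.72 and 12.84 in control cells and 12.08 and 12.12 in TRPM7 shRNA cells. Again both knockdown arrays lay below both control arrays, and MT1A fell by 0.68 (SE 0.11, adjusted p = 0.000697), which is 1.60-fold.

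MT2A, the most widely expressed human metallothionein, read 12.88 and 12.90 in SH-EP2 control cells and 12.43 and 12.39 in TRPM7 shRNA cells. Its groups were also separate, but the log2 fold change of -0.48 (95% interval -0.76 to -0.21) had an adjusted p of 0.0533. This value changed side with the processing, and it passed in 9 of 17 alternatives. MT1E gave 5.45 and 5.22 in control cells and 5.05 and 4.83 in TRPM7 shRNA cells, and its log2 fold change of -0.39 did not pass (95% interval -0.97 to 0.18, adjusted p = 0.640). MT1G, detected on the 4 SH-EP2 arrays, had a log2 fold change of -0.19 (adjusted p = 0.913). Without the intensity trend in the variance model no member passed in SH-EP2, with adjusted p = 0.1002 for MT1X and 0.296 for MT1A, and 100 of all probes passed in place of 1429.

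In SH-SY5Y cells the same direction was measured for 3 metallothioneins, from a lower starting level, and 1 importer was higher. Of the 36 genes, 3 were lower, beside 1.57% of all genes, and 1 was higher, beside 0.999% of all genes. Among members detected on at least 2 of the arrays compared, 4 of 22 passed, beside 5.24% of all genes so detected. At an unadjusted p under 0.05, 3 genes were higher and 5 lower. The median log2 fold change was -0.06 over the 36 genes and 0.0034 over all genes.

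MT2A read 8.22 and 8.54 in SH-SY5Y control cells and 7.84 and 7.29 in TRPM7 shRNA cells. The groups did not overlap, although the knockdown arrays differed from each other by more than the control arrays did. The standard deviations were 0.39 in knockdown and 0.22 in control cells, while the SE of the fit rests on the moderated spread. MT2A fell by 0.81 on the log2 scale (SE 0.13, adjusted p = 0.00106), or 1.76-fold. MT1A read 8.78 and 9.11 in control cells and 8.34 and 8.06 in TRPM7 shRNA cells. Both knockdown arrays were the lower, and MT1A fell by 0.75 (SE 0.11, adjusted p = 0.000294). MT1X read 8.51 and 8.76 in control cells and 8.31 and 8.12 in TRPM7 shRNA cells. The gap between its groups was smaller than the spread within the control pair, and MT1X fell by 0.42 (SE 0.10, adjusted p = 0.0280).

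MT1X in SH-SY5Y lost its call in 11 of 18 alternatives, among them without SH-SY5Y control replicate 2 (-0.29, adjusted p = 0.268), without SH-SY5Y TRPM7 shRNA replicate 2 (-0.33, adjusted p = 0.225) and with median scaling (-0.26, adjusted p = 0.267). It was also lost without each of the 4 SH-EP2 arrays in turn, which carry no value of this contrast and enter only through the normalization and the shared spread (adjusted p = 0.0529 to 0.0613). MT1F, detected in SH-SY5Y and not in SH-EP2, read 7.79 and 7.71 in control cells and 7.46 and 7.38 in TRPM7 shRNA cells. Its log2 fold change of -0.32 did not pass (95% interval -0.95 to 0.30, adjusted p = 0.780). MT1E read 4.70 and 4.71 in control cells and 4.62 and 4.78 in TRPM7 shRNA cells, with overlapping groups and a log2 fold change of -0.0049 (95% interval -0.58 to 0.57). No member passed in SH-SY5Y without the intensity trend, with adjusted p = 0.301 for MT1A and 0.345 for MT2A.

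**Figure D1:**
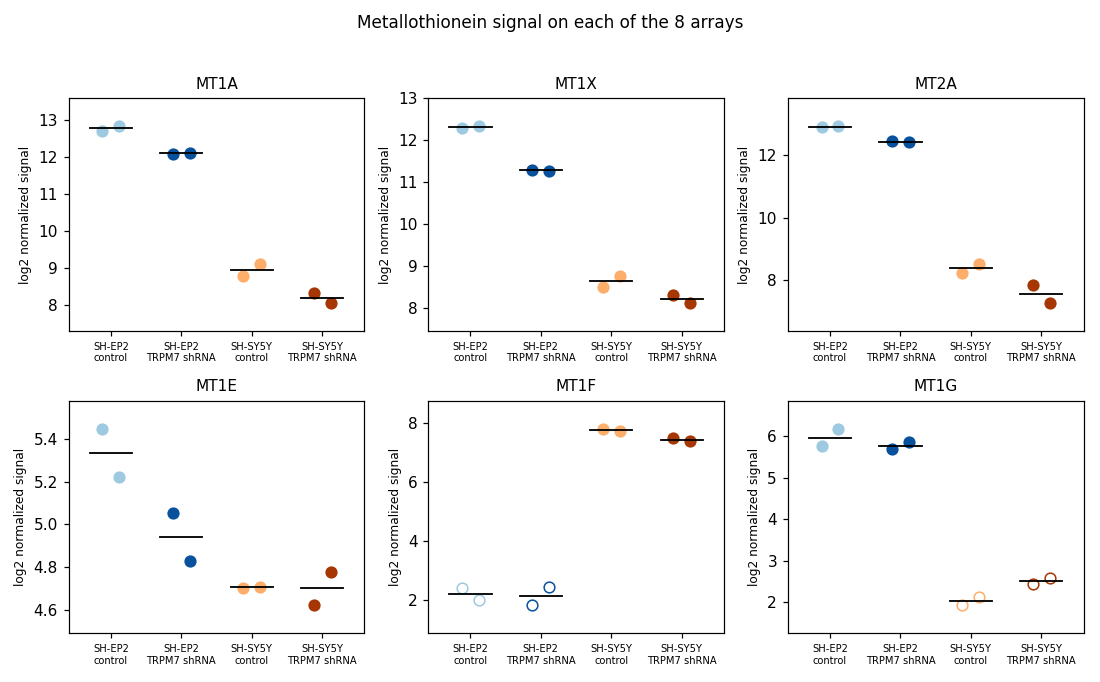
Log2 normalized signal (vertical axis, a separate range in each panel) of 6 metallothioneins on each of the 8 arrays by group (horizontal axis). Points are single arrays, bars are means of 2 arrays, and open points had a detection p of 0.05 or more. MT1A, MT1X and MT2A lie in the same order in their panels, SH-EP2 control highest and SH-SY5Y TRPM7 shRNA lowest.

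SLC39A6 encodes an importer of the plasma membrane that pairs with the SLC39A10 protein. It read 8.73 and 8.85 in SH-SY5Y control cells and 9.38 and 9.27 in TRPM7 shRNA cells. Both knockdown arrays were higher than both control arrays, and SLC39A6 rose by 0.54 on the log2 scale (SE 0.12, adjusted p = 0.0165), or 1.46-fold. The second SLC39A6 probe rose by 0.62 (adjusted p = 0.00970). The call was lost without SH-SY5Y control replicate 1 (adjusted p = 0.101) and without either TRPM7 shRNA array (adjusted p = 0.158 without replicate 1 and 0.0525 without replicate 2). In SH-EP2 cells SLC39A6 read 7.62 and 7.62 in control cells and 7.41 and 7.34 in TRPM7 shRNA cells. That log2 fold change of -0.24 did not pass (95% interval -0.49 to 0.01, adjusted p = 0.421).

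SLC39A10 read 6.99 and 6.94 in SH-EP2 control cells and 7.28 and 7.26 in TRPM7 shRNA cells, which is a log2 fold change of 0.31 (adjusted p = 0.502). In SH-SY5Y cells it read 7.39 and 7.30 in control cells and 6.65 and 7.18 in TRPM7 shRNA cells, which is a log2 fold change of -0.43 (adjusted p = 0.302). Neither difference passed, although the groups were separate in both lines. Among the other importers, SLC39A11 had the largest positive value in SH-EP2, 0.46, which did not pass (adjusted p = 0.141).

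No exporter passed in either line. SLC30A1, the plasma membrane exporter and a known MTF1 target, read 7.66 and 7.53 in SH-EP2 control cells and 7.39 and 7.56 in TRPM7 shRNA cells. The groups overlapped, with a log2 fold change of -0.11 (95% interval -0.49 to 0.26, adjusted p = 0.883). In SH-SY5Y cells SLC30A1 read 5.45 and 5.75 in control cells and 5.68 and 5.67 in TRPM7 shRNA cells. These groups also overlapped, with a log2 fold change of 0.07 (95% interval -0.30 to 0.45, adjusted p = 0.938). The second SLC30A1 probe gave -0.05 in SH-EP2 and -0.53 in SH-SY5Y, neither of which passed (adjusted p = 0.963 and 0.270). The 6 detected exporters ranged from -0.61 to 0.12 in SH-EP2 and from -0.21 to 0.65 in SH-SY5Y on the log2 scale.

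MTF1, the zinc-sensing activator, read 6.55 and 6.69 in SH-EP2 control cells and 6.51 and 6.49 in TRPM7 shRNA cells. In SH-SY5Y cells MTF1 read 6.08 and 5.90 in control cells and 6.07 and 6.11 in TRPM7 shRNA cells. The log2 fold changes of -0.13 (95% interval -0.51 to 0.26) and 0.10 (95% interval -0.29 to 0.48) did not pass. The array measures the RNA of MTF1 and not the zinc-dependent activity of its protein.

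**Figure D2:**
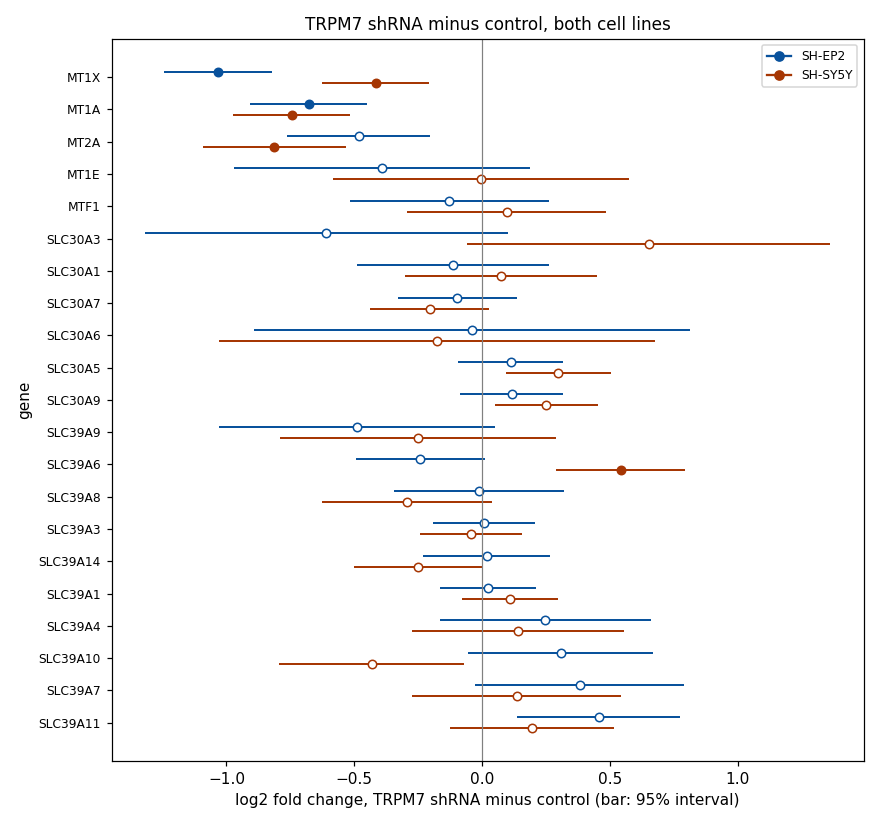
Log2 fold change of TRPM7 shRNA against control (horizontal axis) for the 21 genes detected on all 8 arrays (vertical axis), in SH-EP2 and SH-SY5Y. Bars are 95% intervals from the limma fit, and filled points passed an adjusted p of 0.05. The filled points are MT1X and MT1A in SH-EP2, and MT2A, MT1A, MT1X and SLC39A6 in SH-SY5Y.

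**Figure D3:**
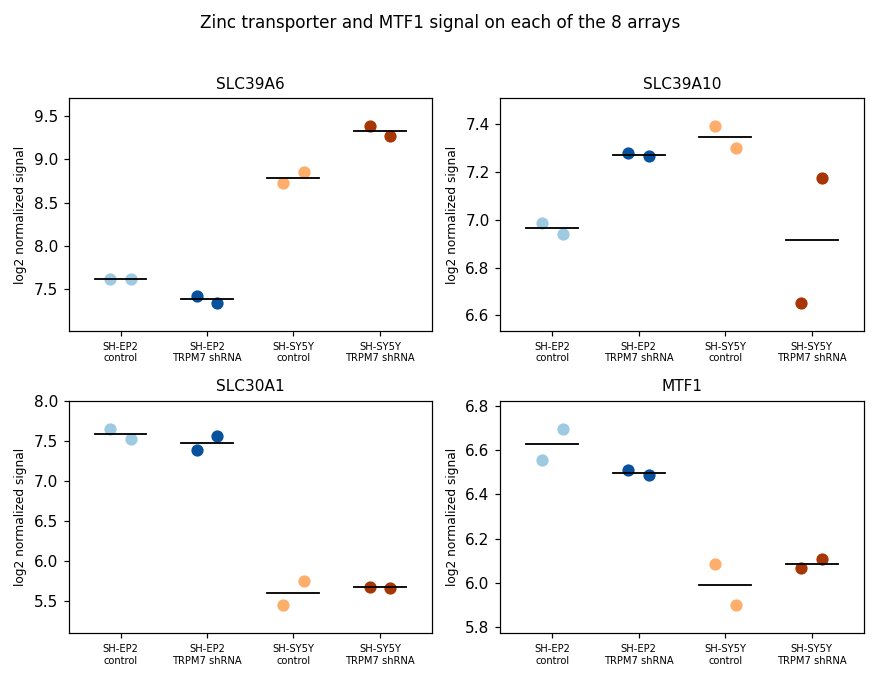
Log2 normalized signal (vertical axis, a separate range in each panel) of SLC39A6, SLC39A10, SLC30A1 and MTF1 on each of the 8 arrays by group (horizontal axis). Points are single arrays, all of them detected, and bars are means of 2 arrays. SLC39A6 lies higher with TRPM7 shRNA in SH-SY5Y, at 9.38 and 9.27 against 8.73 and 8.85.

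The difference between the knockdown effects of the lines was tested as an interaction, given as the SH-EP2 effect minus the SH-SY5Y effect. Of the 36 genes, 2 were lower, beside 0.786% of all genes, and none was higher, beside 0.993% of all genes. Among members detected on at least 2 arrays, 2 of 24 passed, beside 3.23% of all genes so detected. At an unadjusted p under 0.05, 1 gene was higher and 4 were lower. MT1X had an interaction of -0.62 (SE 0.14, adjusted p = 0.0279), with a lower signal after knockdown in both lines and a larger decrease in SH-EP2. SLC39A6 had an interaction of -0.78 (SE 0.17, adjusted p = 0.0186), and its second probe gave -0.63 (adjusted p = 0.115). Both calls were lost without any 1 of the 4 SH-EP2 arrays, without SH-SY5Y control replicate 1 and without SH-SY5Y TRPM7 shRNA replicate 1, with adjusted p from 0.101 to 0.142 for MT1X and from 0.0610 to 0.1001 for SLC39A6. For MT1A the interaction was 0.07 (95% interval -0.25 to 0.39, adjusted p = 0.934) and for MT2A it was 0.33 (95% interval -0.06 to 0.72, adjusted p = 0.584). MT2A passed at 0.62 without SH-SY5Y TRPM7 shRNA replicate 1 (adjusted p = 0.0481), SLC30A3 passed without SH-SY5Y control replicate 1, and SLC39A10 passed without SH-SY5Y TRPM7 shRNA replicate 2.

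The cell lines differed by far more than the knockdown groups did, in these genes as over the whole array. Over all genes 30.1% passed between the lines in control cells, beside 3.67% after knockdown in SH-EP2 and 2.57% in SH-SY5Y. Line and culture medium cannot be told apart in these comparisons. In control cells 11 of the 36 genes were higher in SH-EP2, beside 14.2% of all genes, and 4 were lower, beside 15.9% of all genes. In TRPM7 shRNA cells, on arrays that the control comparison did not use for its values, 10 were higher, beside 14.2% of all genes, and 4 were lower, beside 15.7% of all genes. With median scaling in place of quantile normalization the TRPM7 shRNA comparison gave 9 higher and 6 lower, where the median over all probes moved to -0.13 from -0.0097. The control arrays here are also those of the knockdown comparisons, so the line differences in control cells are not independent of the knockdown values. Among genes detected on at least 2 of the arrays compared, 59.5% of all genes passed in control cells and 57.6% in TRPM7 shRNA cells. Of the members so detected, 15 of 23 and 14 of 23 passed, which are near shares.

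MT2A had the largest difference toward SH-EP2. Its signals of 12.88 and 12.90 in SH-EP2 against 8.22 and 8.54 in SH-SY5Y control cells gave a log2 difference of 4.51 (SE 0.13, adjusted p = 4.69e-16), a 22.8-fold higher signal. In TRPM7 shRNA cells the difference was 4.84 (adjusted p = 1.76e-16). MT1A was higher in SH-EP2 by 3.83 on the log2 scale in control cells (adjusted p = 2.60e-16) and by 3.90 in TRPM7 shRNA cells (adjusted p = 2.10e-16). MT1X was higher by 3.68 in control cells (adjusted p = 1.42e-16) and by 3.06 in TRPM7 shRNA cells (adjusted p = 2.31e-15). For these 3 genes every SH-EP2 array lay above every SH-SY5Y array, whether control or knockdown.

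MT1G and MT1F were each detected in 1 line only, and in opposite lines. MT1G read 5.76 and 6.18 in SH-EP2 control cells and was not detected in SH-SY5Y cells, where its background-level values were 1.93 and 2.12 in control cells. It was at least 7.01-fold higher in SH-EP2 control cells (adjusted p = 3.27e-08) and at least 6.72-fold higher in SH-EP2 TRPM7 shRNA cells (adjusted p = 4.81e-07). These bounds, and those of MT1F below, hold for the main processing. They set the mean of the detected line against the lowest detected signal of each array of the other line. The adjusted p-values belong to the fitted differences and not to the bounds. MT1F read 7.79 and 7.71 in SH-SY5Y control cells and was not detected in SH-EP2 cells, where it read 2.39 and 2.00 in control cells. It was at least 22.9-fold lower in SH-EP2 control cells (adjusted p = 7.30e-12) and at least 19.0-fold lower in SH-EP2 TRPM7 shRNA cells (adjusted p = 1.56e-11). MT1F thus went against the direction of the other metallothioneins that passed. Over the alternatives other than leaving out 1 array, the log2 difference in control cells ranged from 0.72 to 3.94 for MT1G. For MT1F it ranged from -5.55 to -1.59. Both genes kept direction and call, but the smallest differences lie below the bounds, so the size depends on the processing.

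SLC30A1 was the exporter with the largest difference toward SH-EP2. It was higher by 1.99 on the log2 scale in control cells (SE 0.18, adjusted p = 1.82e-08), or 3.97-fold, and by 1.80 in TRPM7 shRNA cells (adjusted p = 7.89e-08). Its second probe gave 1.54 and 2.02, both past the threshold. Over the alternatives other than leaving out 1 array, the SLC30A1 difference in control cells ranged from 0.92 to 1.99 and kept its call. MTF1 was higher in SH-EP2 by 0.63 in control cells (adjusted p = 0.0127), while its difference of 0.41 in TRPM7 shRNA cells did not pass (adjusted p = 0.125). The difference between these MTF1 values, an interaction of -0.22, did not pass either (adjusted p = 0.848).

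Toward SH-SY5Y, SLC39A6 was lower in SH-EP2 by 1.17 on the log2 scale in control cells (adjusted p = 1.17e-07) and by 1.95 in TRPM7 shRNA cells (adjusted p = 5.35e-11). SLC30A9, a mitochondrial zinc transporter, was lower by 0.54 (adjusted p = 0.000119) and by 0.68 (adjusted p = 8.30e-06). SLC30A6, a subunit of a transporter of the secretory pathway, gave -1.38 in control cells (adjusted p = 0.0133) and -1.24 in TRPM7 shRNA cells (adjusted p = 0.0267). Its second probe was detected on the 4 SH-EP2 arrays and on none of the SH-SY5Y arrays. That probe was at least 2.91-fold higher in SH-EP2 TRPM7 shRNA cells (adjusted p = 0.000412), while in control cells its difference, at least 1.39-fold, did not pass (adjusted p = 0.127). The probes of SLC30A6 thus went opposite ways, and no direction is given for the gene. The SLC30A6 call was also lost in control cells without SH-EP2 control replicate 2 (-0.69, adjusted p = 0.298) or SH-SY5Y control replicate 2 (-1.12, adjusted p = 0.145), and in TRPM7 shRNA cells without SH-EP2 TRPM7 shRNA replicate 2 (-0.91, adjusted p = 0.225) or SH-SY5Y TRPM7 shRNA replicate 2 (-0.96, adjusted p = 0.232). The other members that passed in both comparisons, SLC30A7, SLC39A1, SLC39A7, SLC39A11 and SLC39A14, were higher in SH-EP2 by 0.39 to 1.66 on the log2 scale.

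**Figure D4:**
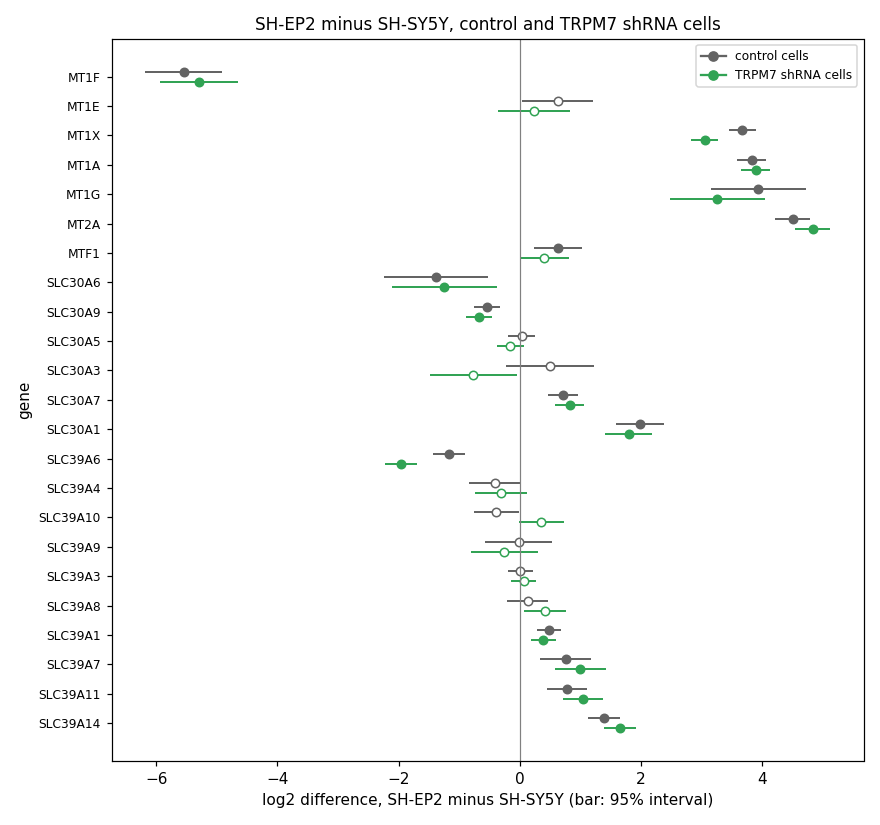
Log2 difference of SH-EP2 minus SH-SY5Y (horizontal axis) for the 23 genes detected on at least 4 arrays (vertical axis), in control and TRPM7 shRNA cells. Bars are 95% intervals from the limma fit, and filled points passed an adjusted p of 0.05. MT2A, MT1A, MT1X and MT1G lie far to the right and MT1F far to the left, where the fitted values of MT1G and MT1F rest on a line in which the gene was not detected.

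Genes that handle other metals were counted alongside. Of 19 such genes, 3 were higher and 1 lower in SH-EP2 TRPM7 shRNA cells, beside 1.82% and 1.85% of all genes. In SH-SY5Y TRPM7 shRNA cells 1 was higher and 2 were lower, beside 0.999% and 1.57% of all genes. Their median log2 fold changes were 0.03 and 0.09, against 0.01 and 0.0034 over all genes. SLC11A2, an importer of iron and other divalent metals, rose by 1.04 in SH-EP2 (adjusted p = 0.000182) and by 0.67 in SH-SY5Y (adjusted p = 0.0154). ACO1, an iron-sensing RNA-binding protein, fell by 0.64 in SH-EP2 (adjusted p = 0.000952) and by 0.64 in SH-SY5Y (adjusted p = 0.00114). SLC40A1, the iron exporter, rose by 1.18 in SH-EP2 (adjusted p = 0.0244). Its control values of 3.85 and 3.42 lay near the lowest detected signals of those arrays, 3.24 and 3.22, so the size of the rise is uncertain. ATP7A, a copper exporter, fell by 1.45 in SH-SY5Y (adjusted p = 0.00124).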

How the data were processed

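Total RNA of SH-EP2 and SH-SY5Y cells with scrambled or TRPM7 shRNA was profiled on Illumina HumanHT-12 v4 arrays, 2 per group, grouped by the labels. The authors extracted bead intensities in GenomeStudio 2011.1 and deposited them without normalization, on a linear scale, for 47322 probes. The deposited table also holds a detection p-value for each intensity, made by the authors in the same software. The number of arrays limits the precision. The study's methods name Robust-Multi-Array normalization and no test. Here the RMA background model was coded anew, since the original package was not used, followed by quantile normalization over the 8 arrays and log2, without a filter.

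A limma 3.58.1 model of the 4 group means was used under R 4.3.3 (with statmod 1.5.0), its variances moderated with an intensity trend. The tests took both directions into account (two-sided), and Benjamini-Hochberg adjustment ran across every probe. Background shares count 1 probe per gene, the brightest, and include genes that were not detected unless stated. For the lists of other genes only these shares are given. Among genes detected on at least 2 of the arrays compared, the shares that passed were larger, 7.78% in SH-EP2 and 5.24% in SH-SY5Y after knockdown. Values on every array were given for members past an adjusted p of 0.05 in a knockdown comparison or the interaction, and for MT2A, MT1X, MT1E, MTF1, SLC30A1 and SLC39A10. In the line comparisons up to 5 members with the largest difference in each direction were named, and from each list of other genes up to 3 in each knockdown comparison, those past the threshold with the largest change. MT1F and MT1G in the knockdown comparisons, SLC39A11, and the members named for passing or failing by count were chosen after their values were seen. The members and lists were chosen with earlier results of these data known. Alternatives changed the background correction, normalization, filter, variance model, arrays fitted, replicate block, probe choice and single arrays. The scripts were tested on simulated data, and the recovery threshold of that test was lowered after a first run had failed it.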

Additional observations from a re-analysis of the deposited data

Results flagged for a closer look

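The knockdown effects of the cell lines differed for 2 genes when the difference itself was tested with limma. MT1X had an interaction of -0.62 on the log2 scale (adjusted p = 0.0279), since its log2 fold change was -1.03 in SH-EP2 cells and -0.42 in SH-SY5Y cells. SLC39A6 had an interaction of -0.78 (adjusted p = 0.0186), since its log2 fold change was -0.24 in SH-EP2 cells and 0.54 in SH-SY5Y cells. MT1X passed in 8 of 17 alternatives and SLC39A6 in 9 of 17.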

How the results depend on the processing

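With 2 arrays per group, the calls depended most on the variance model. Without the intensity trend 0 members passed in SH-EP2, 0 in SH-SY5Y and 0 in the interaction, while 100, 64 and 23 of all probes passed. In SH-EP2, 4 members passed with normexp, 4 without background correction and 4 when only the arrays compared were fitted, MT2A and SLC39A11 being added each time. Leaving out 1 array gave 2 to 3 members in SH-EP2, 2 to 3 in SH-SY5Y and 0 to 3 in the interaction. The 2 left in SH-SY5Y without SH-SY5Y TRPM7 shRNA replicate 2 were MT1A and MT2A. Averaging the probes of a gene left 1 member in the interaction, SLC39A6. The line comparisons gave 12 to 16 members in control cells and 12 to 15 in TRPM7 shRNA cells. Under median scaling 9 were higher and 6 lower in SH-EP2 TRPM7 shRNA cells against SH-SY5Y, beside 10 and 4, and the median over all probes was -0.13 in place of -0.0097. Arrays of the same replicate number showed no positive shared deviation, with correlations of -0.0045 within SH-EP2 and -0.11 within SH-SY5Y. This cannot show whether they were prepared together, which the labels do not say. The replicate block gave 2 members in SH-EP2, 3 in SH-SY5Y and 0 in the interaction. A crossed pairing in SH-SY5Y, chosen after seeing the data, gave 4 members in SH-SY5Y and 2 in the interaction. The values of 3 genes turned sign, of which SLC30A6 had passed. MT1E in SH-SY5Y was 0.15 under median scaling and 0.046 over the mean of its probes, and -0.083 to 0.073 when 1 array was left out. SLC30A1 in SH-SY5Y was -0.23 over the mean of its probes and -0.076 to 0.22 when 1 array was left out. SLC30A6 in TRPM7 shRNA cells was 0.55 over the mean of its probes. Of 637 values of single genes, 577 kept direction and call, 44 lost a call, 10 gained one and 6 turned sign; the cause was not tested. Probes near the background carry little information, which covers the 10 members detected on no array.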

Other observations

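Metallothionein genes also respond to glucocorticoids and to oxidative stress, and genes of these responses were counted. The 8 glucocorticoid genes were the receptor gene NR3C1 and targets of the receptor. Of these 8, 1 was higher and 2 were lower in SH-EP2 TRPM7 shRNA cells, beside 1.82% and 1.85% of all genes. In SH-SY5Y cells 1 was lower, beside 1.57% of all genes. Their median log2 fold changes were 0.03 and -0.17, against 0.01 and 0.0034 over all genes. TSC22D3, a glucocorticoid-induced leucine zipper gene, fell by 0.58 in SH-EP2 (adjusted p = 0.0109) and by 0.67 in SH-SY5Y (adjusted p = 0.00389). KLF9 fell by 0.81 (adjusted p = 0.00145) and ERRFI1 rose by 0.75 (adjusted p = 0.000309) in SH-EP2.

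Of 16 oxidative and heavy metal stress genes, 2 were higher and 2 lower in SH-EP2 TRPM7 shRNA cells, beside 1.82% and 1.85% of all genes. In SH-SY5Y cells 3 were lower, beside 1.57% of all genes. Their median log2 fold changes were -0.01 and -0.13, against 0.01 and 0.0034 over all genes. NQO1, a quinone reductase, fell by 0.63 in SH-EP2 (adjusted p = 0.00281) and by 1.42 in SH-SY5Y (adjusted p = 3.23e-07). SOD2, the mitochondrial superoxide dismutase, rose by 0.95 in SH-EP2 (adjusted p = 8.16e-05), and GPX1, a glutathione peroxidase, rose by 0.45 (adjusted p = 0.00476). In SH-SY5Y cells SRXN1 fell by 0.75 (adjusted p = 0.00144) and the heat shock gene HSPA1B fell by 0.40 (adjusted p = 0.0371). The part of these genes in the metallothionein values was not tested.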
